A study of Homo sapiens with 6 samples.

Results

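This account covers 30 genes of the p53 pathway in SH-SY5Y cells with and without a lasting shortage of TDP-43. The genes were chosen by symbol from a fixed list of well-known p53 target and feedback genes. This list and the related lists below were chosen with earlier results of these data known. All 30 genes were found among the 26372 genes of the deposited table. Of these, 29 had a mean of 1 FPKM or more (fragments counted in a gene, scaled by its transcript length and by the size of the library) over the 6 libraries and were among the 13434 genes tested together. SH-SY5Y is a human neuroblastoma line. The knockdown cells had been infected with lentivirus that expresses a short hairpin RNA against TDP-43 (libraries named shT2), and the labels describe selection with puromycin at 2 μg/mL for 2 weeks, then upkeep at 1 μg/mL. The control cells carried a control hairpin (libraries named shNC3), and the labels do not say how they were selected. There were 3 poly(A) libraries of each group. The labels state neither a clone nor separate cultures, and the p-values therefore cover the spread among these libraries alone, possibly a technical one.

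The transcription factor p53 is kept scarce in unstressed cells by MDM2, a ubiquitin ligase, and by its relative MDM4, which binds p53 and blocks it. DNA damage and other stresses free p53, which then switches on genes that halt the cell cycle, repair DNA, adjust metabolism or start cell death, and also MDM2 itself, which closes a feedback loop. TARDBP encodes TDP-43, which binds RNA, acts in splicing and is depleted from neuronal nuclei in amyotrophic lateral sclerosis.

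The knockdown was visible in the libraries, with TARDBP at 21.2 ± 0.598 FPKM in the knockdown and 49.5 ± 1.49 FPKM in the control (SD, n = 3 each). Absolute depth is unknown, because FPKM hides read numbers. Judged from the lowest values, knockdown libraries 1, 2 and 3 had 69.7%, 52.5% and 94.4% of the depth of control library 1, the deepest, and control libraries 2 and 3 had 96.0% and 84.2%. Of noradrenergic markers, which define most SH-SY5Y cells, HAND2 stood at 363 ± 28.6 FPKM in the knockdown against 210 ± 1.31 FPKM in the control, and TH was listed at 0 in all 6 libraries. Others of that list went the other way. SCG2 stood at 38.1 ± 1.03 FPKM in the knockdown against 436 ± 2.81 FPKM in the control, and GAP43 at 7.29 ± 0.660 against 44.3 ± 1.97 FPKM. Of 23 tested noradrenergic markers 17 rose (73.9%) and 5 fell (21.7%) in the knockdown, against 30.5% and 35.9% of all tested genes. Of 10 listed Schwann and glial markers only 4 reached the minimum mean and were tested. Of these 3 rose and 1 fell. The groups also differed in mesenchymal markers. Of 29 tested, 26 were lower (89.7%) and 2 higher (6.90%) in the knockdown, against 35.9% and 30.5% of all tested genes. The 30 mesenchymal markers listed summed to between 1083 and 1101 FPKM in the knockdown and between 4746 and 4809 FPKM in the control, with ANXA1 and CAV1 at 0 in every knockdown library. The part of this difference in the results below was not tested.

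p53 binds a pair of decamers, each with C at position 4 and G at position 7. RefSeq promoters (GRCh38.p14, 250 bases before to 50 after a start site) were at hand for 25 of the 30 genes. They were searched for the p53 response element consensus, both strands being covered because the consensus is its own reverse complement, with up to 3 bases between the decamers and up to 2 mismatches outside the C and G. Such a match stood in 4 of the 25 genes (16%), against 337 of all 27305 genes in the promoter table (1.23%). The match with the fewest mismatches in each of the 4 genes is shown. All of these genes were lower in the knockdown, as were 20 of the 29 tested members (69.0%) and 35.9% of all tested genes. Whether a match goes with a fall was not tested, and the list itself was made of known p53 target and feedback genes. Capitals mark the decamers, with 4 flanking bases in lower case, on the plus strand.
MDM2: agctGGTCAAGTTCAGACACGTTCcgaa
DDB2: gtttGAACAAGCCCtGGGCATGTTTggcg
FAS: tcctGGACAAGCCCTGACAAGCCAagcc
AEN: agccGGGCTTGCCCGGGCATGTGGgagc
The MDM2 stretch lies at chr12:68808919-68808946, in an intron of the GENCODE v29 annotation, and its first capital is at position -94 from the RefSeq start site. The DDB2 stretch, at chr11:47214975-47215003, had 0 mismatches and overlaps an annotated untranslated exon, as does the AEN stretch at chr15:88621302-88621329. The FAS stretch, at chr10:88991305-88991332, overlaps a noncoding exon. DDB2 held a further match that overlaps the one shown. With 3 mismatches allowed, FDXR, GDF15, PLK2, PMAIP1 and SESN1 joined them, making 9 of 25 (36%) against 5.77% of all genes in the table. Of the genes that joined, SESN1 was called in neither direction and the others were called lower. A match describes the letters of this window only.

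The p53 pathway genes were mostly lower in the knockdown. By limma with Benjamini-Hochberg adjustment over all 13434 tested genes, 20 of the 29 fell (69.0%), against 35.9% of all tested genes. Either direction was called for 25 (86.2%), against 66.3% of all tested genes. A rise was called for 5 of the 29 (17.2%), against 30.5% of all tested genes, and 4 did not pass an adjusted p of 0.05. A fall of at least 2-fold was called for 8 of the 29 (27.6%), against 7.95% of all tested genes, and a rise of that size for 0, against 3.31%. The median log2 fold change of log2(FPKM + 1) was -0.52 for the members and -0.020 for all tested genes. The knockdown values lay wholly below the control values for 19 of the 29, against 38.2% of all tested genes, and wholly above for 5, against 32.5%. Together 24 did not overlap (82.8%), against 70.8% of all tested genes. The summed level of the 30 genes was 394, 371 and 402 FPKM in the knockdown libraries, against 576, 558 and 554 FPKM in the control libraries. In bulk RNA, fewer cells of a type and less RNA per cell cannot be told apart. Of the 3 knockdown libraries number 2, the shallowest by the estimate above, was the lowest for 17 of the 30 genes, number 1 for 6 and number 3 for 7. Of the 3 control libraries number 2 was the lowest for 15, number 3, the shallowest by that estimate, for 13 and number 1 for 2. The same count over all tested genes was not made.

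**Figure D1:**
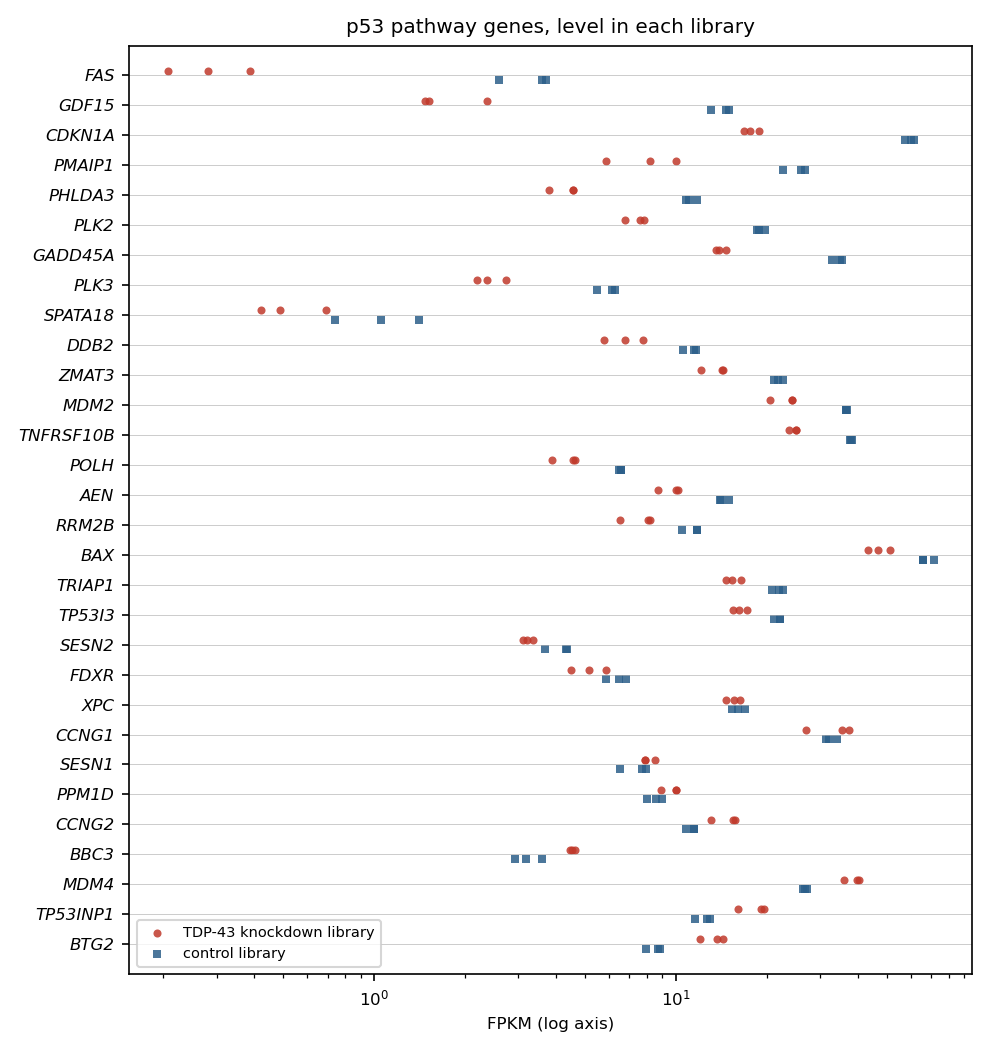
FPKM of each of the 30 p53 pathway genes (log axis) in the 3 TDP-43 knockdown libraries (circles) and the 3 control libraries (squares), ordered by the ratio of means with the lowest on top. FAS, GDF15 and CDKN1A at the top stand furthest to the left of their controls, and BTG2, TP53INP1, MDM4, BBC3 and CCNG2 at the bottom stand to the right.

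Among the genes that control p53 itself, MDM2 and MDM4 moved in opposite directions. MDM2 (GRCh38 chromosome 12, bases 68808176 to 68850686) had 24.2, 20.5 and 24.2 FPKM in the knockdown libraries, against 36.6, 37.0 and 36.6 FPKM in the control libraries. Each knockdown library was below every control library, and the knockdown held 62.6% of the control level (log2 fold change -0.66, standard error 0.0655, limma adjusted p = 3.09e-05). MDM4 (chromosome 1, 204516379 to 204558120) had 40.3, 36.1 and 39.6 FPKM in the knockdown libraries, against 27.2, 26.3 and 26.7 FPKM in the control libraries. All knockdown values were above all control values, with a log2 fold change of 0.52 (standard error 0.0519, limma adjusted p = 3.28e-05). Gene-level FPKM does not separate full-length MDM4 from its shorter splice forms. PPM1D, a phosphatase that turns the p53 response down, stood at 9.65 ± 0.624 FPKM in the knockdown and 8.54 ± 0.479 FPKM in the control (SD, n = 3 each), and the groups overlapped (limma adjusted p = 0.0693). It passed without knockdown library 2 (adjusted p = 0.0170) and with quantile normalization (adjusted p = 0.0083).

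The ratio of MDM4 to MDM2 within a library does not change when a whole column is multiplied by a factor, though quantile normalization can change it. It was 1.67, 1.76 and 1.64 in the knockdown libraries, against 0.744, 0.711 and 0.729 in the control libraries. MDM4 thus had the higher FPKM in every knockdown library and MDM2 in every control library. The difference of the log2 ratios was 1.21. The exact permutation test, two-sided, reached p = 0.1, its lower limit with 3 libraries a group, and 0.133 after adjustment over the 4 gene pairs compared. Ordered by mean FPKM among the 30 genes, MDM4 was number 2 in the knockdown and number 7 in the control, and MDM2 was number 5 in the knockdown and number 4 in the control.

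**Figure D2:**
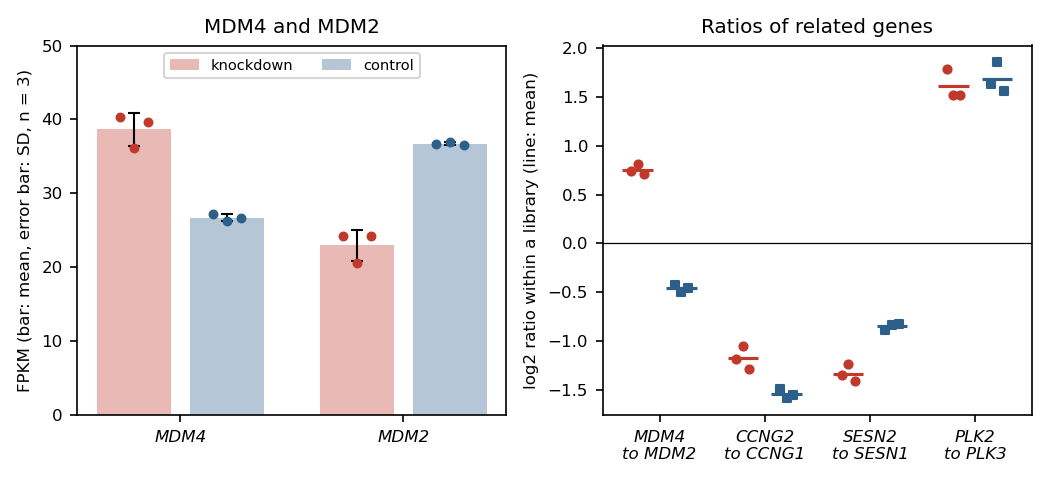
Left, FPKM of MDM4 and MDM2 in each library (points), with the mean (bar) and SD (error bar, n = 3), the knockdown left of the control. Right, log2 ratio of 4 pairs of related genes within each library, knockdown (circles) left of control (squares), lines showing means: MDM4 to MDM2 is above 0 in all knockdown libraries and below 0 in all control libraries, and PLK2 to PLK3 overlaps.

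Of 8 cell cycle members 5 fell (62.5%), 2 rose (25%) and 1 did not pass. Over the 29 tested members 69.0% fell and 17.2% rose, and over all tested genes 35.9% and 30.5%. CDKN1A (chromosome 6, 36676460 to 36687339) encodes p21, the inhibitor of cyclin-dependent kinases through which p53 halts the cycle. It had 16.8, 17.6 and 18.8 FPKM in the knockdown libraries, against 60.0, 57.6 and 61.3 FPKM in the control libraries. The groups lay far apart, the knockdown holding 29.7% of the control level (log2 fold change -1.70, standard error 0.0522, limma adjusted p = 1.74e-08). In the order of levels CDKN1A was number 7 of the 30 genes in the knockdown and number 2 in the control. GADD45A, a damage-induced gene that slows entry into mitosis, had 13.9, 14.6 and 13.6 FPKM in the knockdown libraries, against 35.4, 34.8 and 33.0 FPKM in the control libraries (log2 fold change -1.24, limma adjusted p = 1.03e-07). The polo-like kinase genes PLK2 and PLK3, which act in checkpoint and stress signalling, fell by 1.25 and 1.02 on the log2 scale. Their ratio to each other within a library was 3.06 ± 0.338 in the knockdown and 3.21 ± 0.348 in the control (SD, n = 3 each), and the groups overlapped (exact two-sided permutation p = 0.5). ZMAT3, which encodes an RNA-binding zinc finger protein, held 62.1% of its control level (log2 fold change -0.65, limma adjusted p = 5.07e-05).

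BTG2, an antiproliferative gene that also acts in mRNA decay, moved the other way. It had 12.02, 14.3 and 13.7 FPKM in the knockdown libraries, against 8.81, 8.72 and 7.97 FPKM in the control libraries. All knockdown values were above all control values, and the log2 fold change of 0.59 was the largest rise among the members (standard error 0.0743, limma adjusted p = 1.33e-04). The cyclin G genes differed from each other. CCNG2, which encodes a cyclin that restrains the cycle, had 15.7, 13.0 and 15.4 FPKM in the knockdown libraries, against 11.5, 11.4 and 10.7 FPKM in the control libraries (log2 fold change 0.36, limma adjusted p = 0.00281). CCNG1, whose product acts with a phosphatase on MDM2, had 35.6, 26.9 and 37.5 FPKM in the knockdown libraries, against 32.2, 34.2 and 31.4 FPKM in the control libraries. Knockdown library 2 lay below and the other 2 above the controls (log2 fold change 0.017, limma adjusted p = 0.90). Without that library CCNG1 passed, at a log2 fold change of 0.16 (adjusted p = 0.0177). The ratio of CCNG2 to CCNG1 was 0.446 ± 0.0371 in the knockdown and 0.344 ± 0.0115 in the control (SD, n = 3 each), with no overlap of the groups (exact two-sided permutation p = 0.1).

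BTG2 and MDM4 lie 1.21 Mb apart on the long arm of chromosome 1. Of 51 tested genes between positions 201305491 and 206558120, 13 were higher (25.5%) and 28 lower (54.9%) in the knockdown, against 29.98% and 36.7% of all tested genes with a known position. Their median log2 fold change was -0.22. PHLDA3 is among the neighbours that were lower. The 30 genes are spread over 14 chromosomes, with 6 on chromosome 1.

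**Figure D3:**
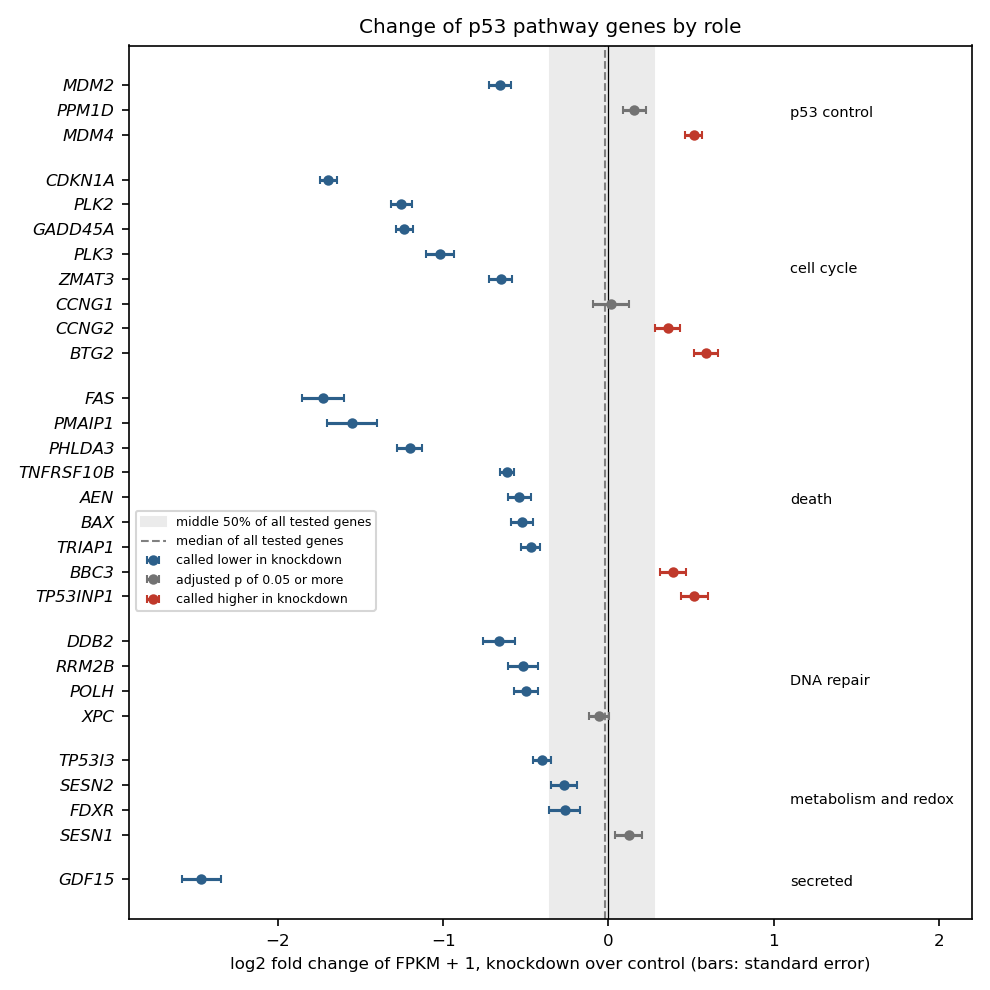
Log2 fold change of FPKM + 1, knockdown over control, of the 29 tested p53 pathway genes with its standard error, grouped by role. The grey band holds the middle 50% of all 13434 tested genes and the dashed line their median of -0.020, and GDF15, FAS and CDKN1A lie furthest below the band.

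Of 9 members that act in cell death or survival signalling 7 fell (77.8%) and 2 rose (22.2%). Falls made up 69.0% of the 29 tested members and 35.9% of all tested genes, and rises 17.2% and 30.5%. The death receptor gene FAS had 0.281, 0.207 and 0.386 FPKM in the knockdown libraries, against 3.59, 2.60 and 3.71 FPKM in the control libraries. These are low levels, and the knockdown held 8.83% of the control level (log2 fold change -1.73, standard error 0.124, limma adjusted p = 3.77e-06). FAS shares 380 exonic bases with ACTA2 on the opposite strand, and ACTA2, which encodes smooth muscle actin, had 10.4 ± 2.16 FPKM in the knockdown and 92.4 ± 1.49 FPKM in the control (SD, n = 3 each). The library kit kept strand, but no source used here says whether counting used it, so whether reads of the shared bases were assigned by strand is not known. In all, 11 of the 30 genes share exonic bases with another annotated gene, 10 of them on the opposite strand, and MDM2 shares 439 bases with a processed pseudogene on its own strand. TNFRSF10B, the TRAIL receptor DR5, stood at 24.6 ± 0.749 FPKM in the knockdown and 38.1 ± 0.315 FPKM in the control (log2 fold change -0.61, limma adjusted p = 3.10e-06).

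The BH3-only genes, whose products free the mitochondrial arm of cell death, moved in opposite directions. PMAIP1, which encodes NOXA, had 8.18, 5.88 and 10.03 FPKM in the knockdown libraries, against 26.7, 25.9 and 22.6 FPKM in the control libraries. It varied more within each group than most members, yet the groups did not overlap (log2 fold change -1.55, standard error 0.152, limma adjusted p = 2.77e-05). BBC3, which encodes PUMA, had 4.53, 4.64 and 4.45 FPKM in the knockdown libraries, against 3.59, 2.93 and 3.18 FPKM in the control libraries. All knockdown values were above all control values (log2 fold change 0.39, standard error 0.0783, limma adjusted p = 0.00216). BAX, the pore-forming effector on which these proteins act, had the highest FPKM of the 30 genes in all 6 libraries. It had 43.2, 51.1 and 46.6 FPKM in the knockdown libraries, against 71.4, 66.0 and 66.0 FPKM in the control libraries (log2 fold change -0.52, limma adjusted p = 1.18e-04).

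PHLDA3, an inhibitor of AKT signalling, held 38.5% of its control level (log2 fold change -1.20, limma adjusted p = 1.67e-06). AEN, a nuclease gene of the apoptotic response, and TRIAP1, which opposes apoptosis, held 66.8% and 70.9% of their control levels. TP53INP1, whose product favours p53-dependent death and also acts in autophagy, had 19.1, 16.0 and 19.5 FPKM in the knockdown libraries, against 12.7, 12.9 and 11.6 FPKM in the control libraries. It rose by 0.52 on the log2 scale without overlap of the groups (standard error 0.0810, limma adjusted p = 5.03e-04), and was number 6 of the 30 genes by level in the knockdown and number 16 in the control.

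Among 4 DNA repair members 3 fell (75%), against 69.0% of the 29 tested members and 35.9% of all tested genes. DDB2 and XPC encode the proteins that find ultraviolet damage for nucleotide excision repair. DDB2 had 7.78, 6.78 and 5.77 FPKM in the knockdown libraries, against 11.5, 10.6 and 11.7 FPKM in the control libraries (log2 fold change -0.66, limma adjusted p = 2.99e-04). XPC stood at 15.5 ± 0.847 FPKM in the knockdown and 16.1 ± 0.821 FPKM in the control (SD, n = 3 each), the groups overlapped and the adjusted p was 0.441. It shares 318 exonic bases with LSM3 on the opposite strand, which stood at 82.8 ± 5.39 FPKM in the knockdown and 101 ± 2.47 FPKM in the control. RRM2B, a subunit of ribonucleotide reductase that supplies nucleotides for repair, held 67.4% of its control level (limma adjusted p = 9.13e-04). POLH, the polymerase that copies past ultraviolet lesions, held 66.4% (limma adjusted p = 3.63e-04).

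Of the metabolic and redox members, the quinone oxidoreductase gene TP53I3 stood at 16.3 ± 0.825 FPKM in the knockdown and 21.8 ± 0.553 FPKM in the control (log2 fold change -0.40, limma adjusted p = 1.77e-04). FDXR, a mitochondrial reductase gene, fell by 0.27, the groups overlapped, and the limma adjusted p was 0.0345. That call was lost without control library 1 (adjusted p = 0.0905), control library 3 (0.117), knockdown library 2 (0.0841) or knockdown library 3 (0.0710). SPATA18, which acts in mitochondrial quality control, was below the minimum mean and was not tested. It had 0.693, 0.421 and 0.488 FPKM in the knockdown libraries, against 1.40, 0.739 and 1.05 FPKM in the control libraries, and the highest knockdown value was just under the lowest control value.

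The sestrin genes, whose products restrain the growth regulator mTORC1, differed from each other. SESN2 had 3.10, 3.37 and 3.21 FPKM in the knockdown libraries, against 4.32, 4.34 and 3.66 FPKM in the control libraries (log2 fold change -0.27, limma adjusted p = 0.0158). The call was lost without control library 1 (adjusted p = 0.0639) or control library 2 (0.0632). SESN1 had 7.90, 7.89 and 8.53 FPKM in the knockdown libraries, against 7.94, 7.74 and 6.50 FPKM in the control libraries, which overlapped (limma adjusted p = 0.209, and 0.0453 with quantile normalization). The ratio of SESN2 to SESN1 was 0.399 ± 0.0255 in the knockdown and 0.556 ± 0.0114 in the control (SD, n = 3 each), with no overlap (exact two-sided permutation p = 0.1). The third family member, SESN3, picked after its values were seen, had 17.8, 15.2 and 19.3 FPKM in the knockdown libraries, against 10.6, 10.5 and 9.94 FPKM in the control libraries (log2 fold change 0.69, limma adjusted p = 9.18e-05).

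GDF15, a secreted stress hormone of the TGF-beta superfamily, had the largest fall of the members on the log2(FPKM + 1) scale. It had 2.35, 1.52 and 1.48 FPKM in the knockdown libraries, against 14.96, 13.1 and 14.6 FPKM in the control libraries. The knockdown held 12.5% of the control level (log2 fold change -2.46, standard error 0.120, limma adjusted p = 3.05e-07), and 1.64% of all tested genes had a lower log2 fold change. GDF15 was number 28 of the 30 genes by level in the knockdown and number 15 in the control.

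The sign of the 5 rises depends on the scaling of the columns. BTG2, TP53INP1, MDM4, BBC3 and CCNG2 were above 0 as deposited, with median-of-ratios rescaling, with quantile normalization, and when 6 very abundant small RNAs were set aside before the columns were brought to equal sums. With columns rescaled to equal sums, which moved the median of all tested genes to -0.82, they were at -0.24, -0.33, -0.36, -0.33 and -0.48. Measured from the median of all tested genes under each scaling they were all above it, by 0.33 to 0.64. The members' median minus that of all tested genes was between -0.51 and -0.49 under the 5 scalings.

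**Figure D4:**
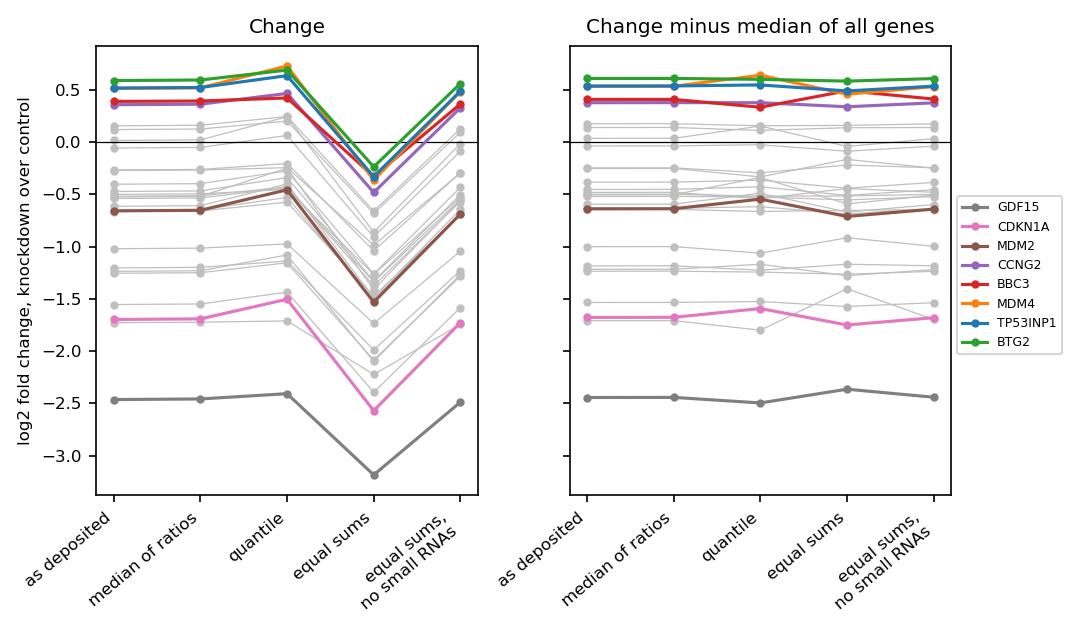
Log2 fold change of the 29 tested p53 pathway genes (lines) as deposited and under 4 other scalings, as it is (left) and minus the median of all tested genes (right). With columns rescaled to equal sums all members lie below 0 on the left, while on the right BTG2, TP53INP1, MDM4, BBC3 and CCNG2 lie above 0 under every scaling.

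Of 26 tested core and upstream regulators 12 rose (46.2%) and 4 fell (15.4%), against 30.5% and 35.9% of all tested genes, and together 61.5% were called, against 66.3%. The median log2 fold change was 0.12 against -0.020 for all tested genes. With columns rescaled to equal sums 0 of the 26 were called higher and 24 lower. RPL11 and RPL5, ribosomal proteins that can bind and hold MDM2, rose by 0.77 and 0.74, and both were below 0 with that rescaling (-0.13 and -0.16). PPP1R13B and PPP1R13L, related genes whose products favour and restrain p53-dependent death, stood at 4.37 ± 0.359 and 2.11 ± 0.400 FPKM in the knockdown, against 11.95 ± 0.245 and 4.36 ± 0.533 FPKM in the control (SD, n = 3 each).

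Other direct p53 targets outside the 30 genes were mostly lower too. Of 46 listed, 37 were tested, 26 fell and 7 rose, 70.3% and 18.9% against the 35.9% and 30.5% of all tested genes given above. Their median log2 fold change was -0.44. Among those that fell, the matrix gene THBS1 stood at 6.14 ± 0.508 against 56.2 ± 1.05 FPKM, DRAM1, an autophagy gene, at 0.274 ± 0.103 against 5.37 ± 0.501, and the cytokine gene LIF at 0.118 ± 0.0654 against 4.49 ± 0.279 (knockdown against control, SD, n = 3 each). The mesenchymal markers were lower in the same libraries, as given above.

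Genes known to be lowered by p53 through p21 and the DREAM repressor complex were lower together with CDKN1A. Of 20 tested, 18 fell and 0 rose (90.0% and 0% against 35.9% and 30.5% of all tested genes), with a median log2 fold change of -0.71. By limma, an unadjusted p under 0.05 was reached by the same number, 18. CCNA2, a cyclin of S phase and mitosis, stood at 14.4 ± 0.418 FPKM in the knockdown and 40.3 ± 1.07 FPKM in the control. CDC20, ECT2 and CDK1, which act in mitosis, fell by 1.28, 1.28 and 1.08 on the log2 scale. By quantile normalization 2 of the 20 were called higher.

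**Figure D5:**
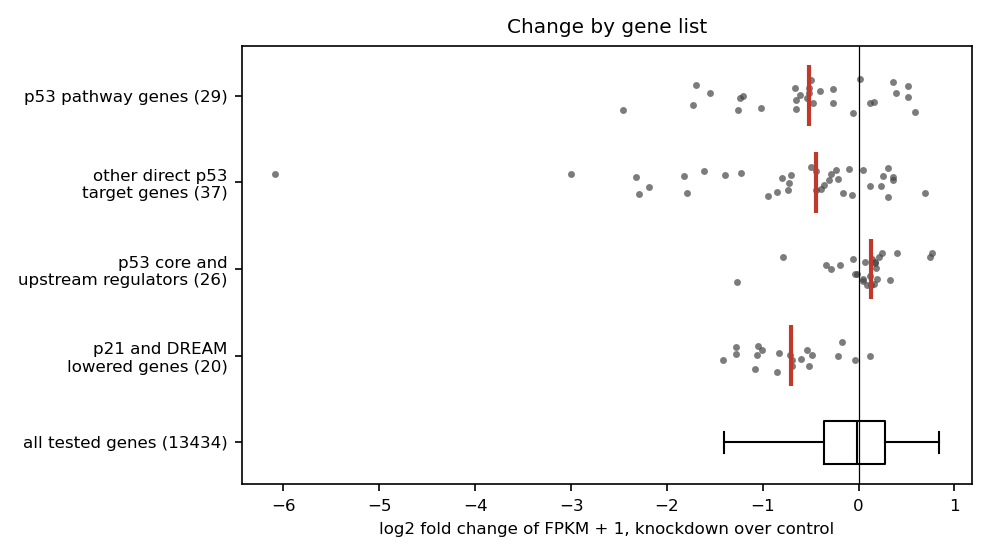
Log2 fold change of FPKM + 1, knockdown over control, of each tested gene (points, placed at random heights) in 4 lists, with the median of each list (red line), above a box plot of all 13434 tested genes (box: middle 50%, whiskers: 5% to 95%). The medians are -0.52 for the p53 pathway genes, -0.44 for other direct targets, 0.12 for regulators and -0.71 for genes lowered through p21 and DREAM.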

How the data were processed

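RNA of 3 knockdown and 3 control libraries was selected for poly(A), and a strand-keeping (directional) library kit was used, per the labels' protocols. The authors deposited FPKM per gene and library. As tools, the submitters' processing notes name TopHat2 2.1.0, SAMtools and Cuffdiff 2.2.1, and as build hg38. The sources used here give neither the annotation nor the strand setting. Groups and library numbers came from the sample titles.

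FPKM values were transformed as log2(FPKM + 1), on which scale changes of low genes are understated. The 13434 genes whose mean reached 1 FPKM were fitted together in limma 3.58.1 (R 4.3.3, variance trend on intensity, two-sided), with Benjamini-Hochberg adjustment over all of them and calls under 0.05. The procedure was tested on simulated data in which few genes changed. It was not tested with as many changes as here, where 66.3% of tested genes were called. Percent of control is the ratio of mean FPKM. Depth relative to control library 1 is the most frequent ratio between libraries among genes under 0.3 FPKM. At most 1 non-zero value was identical between any 2 libraries.

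The members and lists were chosen with earlier results of these data known. All members are named, with TARDBP and up to 4 called genes per related list, those of largest change whose groups did not overlap; some results are not reported here. Alternatives were 2 pseudocounts, 3 filters, 4 scalings, a replicate block, 2 limma settings and leaving out each library. Gene positions and overlaps came from GENCODE v29 (GRCh38), promoters from RefSeq (GRCh38.p14). Python 3.11.15, pandas 2.3.3 and matplotlib 3.10.9 were used.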

Additional observations from a re-analysis of the deposited data

How the results depend on the processing

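Of the members, 20 fell and 5 rose under the replicate block as in the fit without it, with 3894 higher and 4667 lower genes in all, and the block ended the call of no member. Same-numbered libraries did not deviate together (correlations of -0.018, -0.18 and -0.091), and differently numbered ones had correlations from -0.095 to 0.15. With 3 libraries a group, these values cannot tell whether same-numbered libraries were handled together. Leaving out each library gave 18 to 20 members lower and 5 to 7 higher. It gave 24 to 26 other targets lower and 5 to 6 higher, 4 to 5 regulators lower and 8 to 15 higher, 18 DREAM genes lower and 0 higher, 4394 to 4883 genes lower and 3598 to 4257 higher in all, and a TARDBP change of -1.21 to -1.17. With columns rescaled to equal sums 522 genes were higher and 11689 lower, with 0 members, 0 other targets and 0 regulators higher and 24 regulators lower. That scaling gave MDM4 -0.36, BBC3 -0.33, BTG2 -0.24, CCNG2 -0.48, TP53INP1 -0.33, SESN1 -0.68, PPM1D -0.66, CCNG1 -0.86, SESN3 -0.15, RPL11 -0.13 and RPL5 -0.16. Its sums are dominated by SNORD3A and other small RNAs, and without 6 of them the split of calls was 42.3% higher, against 45.9% as deposited and 58.7% with quantile normalization. With that rescaling CCNG1 was at -0.014. CCNG1 also turned negative without knockdown library 1 (-0.036), knockdown library 3 (-0.074) or control library 3 (-0.0083), and was at 0.16 without knockdown library 2. XPC was at 0.065 with quantile normalization, and 2 DREAM genes were higher. The log2 ratio of PLK2 to PLK3 turned to 0.016 without control library 2. At a minimum mean of 5 FPKM 17 other targets were lower, fewer genes being tested. FDXR also lost its call with no filter (adjusted p = 0.0665) and with quantile normalization (0.0860). SPATA18, tested at a minimum mean of 0.1 FPKM, had a log2 fold change of -0.42 (adjusted p = 0.0236). An alternative added after seeing the data left out the 11 members that share exonic bases with another gene. Of the 18 tested members that remained, 12 were lower and 4 higher, against 35.9% and 30.5% of all tested genes. Absolute depth is unknown, and levels under 1 FPKM, as for FAS in the knockdown, rest on few reads.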
